A study of Mus musculus with 6 samples.

Results

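Toll-like receptors, with the adaptor and kinase genes that act directly behind them, were examined in the corneal epithelium of mice lacking Rela. The set was fixed by gene symbol as Tlr1, Tlr2, Tlr3, Tlr4, Tlr5, Tlr6, Myd88, Ticam1, Irak1 and Irak4, and all 10 were found among the 17866 protein-coding genes of the deposited table. RNA was sequenced from the separated corneal epithelium of C57BL/6 mice at 6 months of age, in 3 libraries labelled WT and 3 labelled Rela-/- (KO). In the study the deletion was conditional, since a floxed Rela allele was combined with Krt14-Cre (Krt14-Cre; Rela f/f), so that Rela, the gene of the p65 subunit of NF-κB, was lost from the K14 lineage of the cornea, skin, conjunctiva and oral mucosa. Leukocytes and other cells outside that lineage are not targets of this Cre, and the alleles of the WT mice were not described beyond the label. Rela itself had between 1844 and 1871 estimated counts in WT and between 223 and 318 in KO.

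By the methods of the study, the 3 RNA samples of a group were independent biological samples, without a statement of how many animals each held. Each library held between 20158404 and 20880347 estimated counts. At this depth 3 counts corresponded to between 0.137 and 0.152 CPM, a count scaled for depth and library composition. Krt12, the keratin of corneal epithelium, had between 755776 and 811469 counts in WT and between 109690 and 161317 in KO, where 19.5% of the WT level was left. In the study, the central cornea of the mutant mice at this age carried a newly formed epithelium. It stained for the epidermal keratin K1 in place of K12 and had lost Pax6, a change the authors called metaplasia. The part of this change in the values that follow was not tested. WT replicate 2 stood apart from the other WT libraries for the alarmin genes, with 1263 counts of S100a9 beside 17 and 28.

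Toll-like receptors are membrane proteins that bind conserved microbial molecules, outside the cell or in endosomes, and signal through a shared cytoplasmic domain called TIR. TLR2, paired with TLR1 or TLR6, recognises bacterial lipoproteins, TLR4 recognises lipopolysaccharide, TLR5 flagellin and TLR3 double-stranded RNA. Most of them recruit the adaptor MyD88, which assembles the kinases IRAK4 and IRAK1, whereas TLR3 signals through TRIF, the product of Ticam1, which TLR4 can also use. Both routes lead to NF-κB, and on the ocular surface the epithelium is the first tissue to meet bacteria and viruses.

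Promoters are shown for the 4 genes on which the results turn most, so that the results on their transcripts can be read beside the bases in front of them. RefSeq promoter sequences (GRCm38.p6) were found for 9 of the 10 genes, all but Tlr4. The window ran from 250 bases before the transcription start to 10 bases after it, and both strands were searched for the κB consensus and for the core of the interferon-stimulated response element (ISRE), which reads GAAA, any 2 bases, GAAA. Each sequence is written 5′ to 3′ on the gene's strand, with matches in capitals.
Tlr2 (chr3:83841599-83841858, minus strand): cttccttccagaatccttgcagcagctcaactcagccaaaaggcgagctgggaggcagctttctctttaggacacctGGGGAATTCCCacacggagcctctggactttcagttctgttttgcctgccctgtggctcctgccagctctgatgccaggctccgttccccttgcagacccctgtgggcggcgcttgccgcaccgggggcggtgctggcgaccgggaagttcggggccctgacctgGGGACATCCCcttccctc
Tlr3 (chr8:45410371-45410630, minus strand): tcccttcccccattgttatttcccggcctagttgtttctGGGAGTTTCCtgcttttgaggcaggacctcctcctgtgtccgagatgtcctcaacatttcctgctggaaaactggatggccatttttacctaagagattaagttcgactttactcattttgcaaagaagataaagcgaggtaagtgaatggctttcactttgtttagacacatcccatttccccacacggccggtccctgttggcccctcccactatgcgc
Tlr5 (chr1:182954538-182954797, plus strand): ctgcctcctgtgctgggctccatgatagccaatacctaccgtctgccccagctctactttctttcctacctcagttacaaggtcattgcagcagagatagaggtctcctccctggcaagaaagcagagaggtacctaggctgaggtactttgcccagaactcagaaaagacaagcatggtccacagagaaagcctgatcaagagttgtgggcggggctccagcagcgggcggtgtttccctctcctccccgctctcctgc
Myd88 (chr9:119340009-119340268, minus strand): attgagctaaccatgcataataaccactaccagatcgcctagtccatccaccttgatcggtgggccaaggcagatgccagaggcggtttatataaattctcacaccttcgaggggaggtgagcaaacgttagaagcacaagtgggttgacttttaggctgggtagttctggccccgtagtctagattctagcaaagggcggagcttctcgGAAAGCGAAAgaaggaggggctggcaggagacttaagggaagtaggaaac
The Tlr2 window held overlapping κB matches that started 173 and 172 bases before the start site, and a further one that began 8 bases before it. In the Tlr3 window a κB match began 211 bases before the start. The Tlr5 window had no match of either kind, and that of Myd88 held the ISRE core from 40 to 31 bases before the start. Among the other genes only Tlr6 had a match, again to the ISRE core, at 1 of its start sites and with overlapping copies on the opposite strand. Bases downstream of that start site were not found in a GENCODE M21 transcript. Those of the other Tlr6 start site, whose window had no match, were found. Of all 32851 promoter windows of this length, 4.02% held the κB consensus and 3.07% held the ISRE core. These are matches of letters and no binding was measured here.

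To compare the genotypes, 13305 genes with enough counts were tested with edgeR, and 9 of the 10 genes of the set were among them. Of these 9, Tlr1, Tlr2, Tlr3, Tlr5, Ticam1, Irak1 and Irak4 were lower in KO and Myd88 was higher at an adjusted p of 0.05, while Tlr4 did not pass. This makes 8 of 9 called, beside 62.0% of all genes tested, with 7 of 9 lower, beside 30.2%, and 1 of 9 higher, beside 31.8%. Their median log2 fold change was -0.60, against 0.01 over all genes tested. The stricter threshold used in the study (adjusted p up to 0.001 and at least a 2-fold change) was passed by Tlr3 and Tlr5, both lower in KO, beside 19.8% of all genes and 8.24% of them lower. The WT and KO libraries did not overlap in CPM for the 8 called genes, 7 with KO below WT and 1 with KO above. Over all genes tested 68.6% did not overlap, 33.9% with KO below and 34.7% with KO above. In bulk epithelium, fewer cells of a type and less RNA per cell cannot be told apart.

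**Figure D1:**
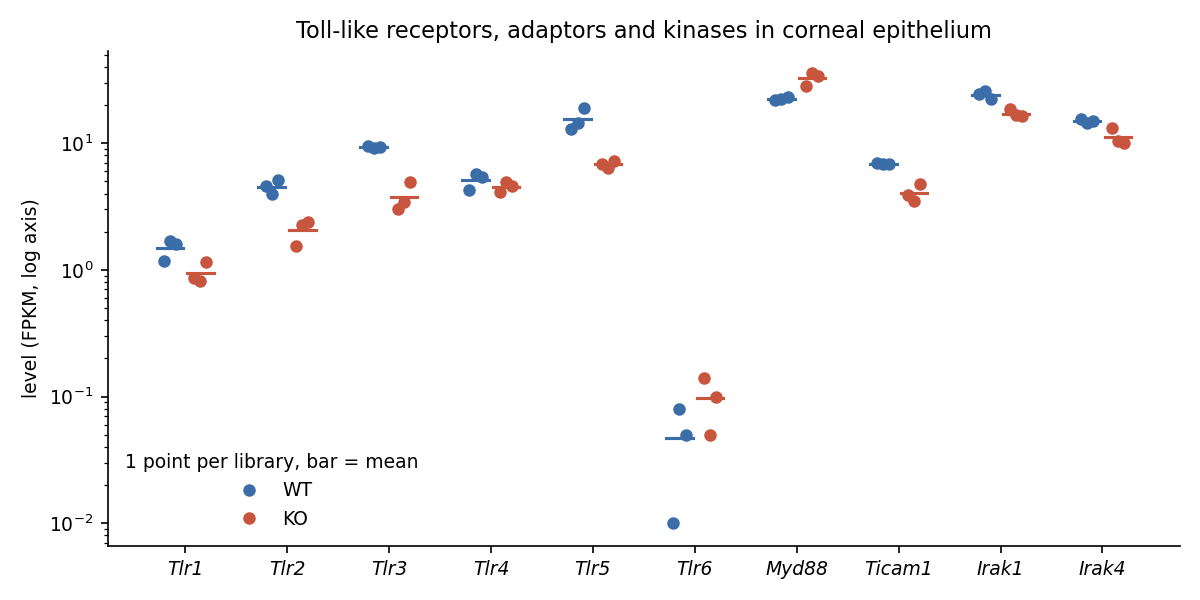
Levels of the 10 genes in FPKM on a log axis, with 1 point per library and a bar at the mean of each genotype (n = 3). KO points lie below WT points for Tlr1, Tlr2, Tlr3, Tlr5, Ticam1, Irak1 and Irak4, above them for Myd88, and the groups overlap for Tlr4 and Tlr6.

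Tlr5 (gene ID 53791, chr1:182954752-182976429 in GRCm38, as are the positions that follow), the flagellin receptor, was the most abundant receptor of the set per gene length. It was counted 903, 1006 and 1315 times in the WT libraries, against 485, 430 and 507 times in the KO libraries. Each KO library thus lay well under the lowest WT library. The level fell from 50.1 ± 10.8 CPM to 23.8 ± 1.96 CPM (mean ± SD over 3 libraries each), a log2 change of -1.07 ± 0.157 (SE, edgeR adjusted p = 0.000481), and 47.5% of the WT level was left.

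Tlr3 (gene ID 142980, chr8:45395665-45411949), the endosomal receptor of double-stranded RNA, had the log2 change furthest below 0 among the tested receptors of the set. Its counts were 864, 835 and 852 in the WT libraries, against 276, 298 and 445 in the KO libraries. The WT libraries were nearly equal, and KO replicate 3 was the highest of the KO libraries without reaching the WT values. The level went from 39.6 ± 0.748 CPM to 17.0 ± 4.48 CPM (mean ± SD over 3 libraries each), with a log2 change of -1.22 ± 0.170 (SE, edgeR adjusted p = 0.000372). The deposited table lists Tlr3 on the plus strand, whereas RefSeq and GENCODE M21 place it on the minus strand, and the antisense gene Gm45542 on the plus strand covers 698 of its bases. Whether the counting used strand is not given in the sources used here, so reads of the antisense gene may be included.

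Tlr2 (gene ID 24088, chr3:83836272-83841824), the common partner in lipoprotein recognition, was counted 273, 238 and 307 times in the WT libraries, against 91, 132 and 144 times in the KO libraries. The groups were apart, and the log2 fold change was -1.05 ± 0.190 (SE, edgeR adjusted p = 0.00155), so that 48.3% of the WT level remained. The partners of TLR2 were expressed at lower levels. Tlr1 (gene ID 21897, chr5:64924680-64933589) was counted 73.2, 98.9 and 96.14 times in the WT libraries, against 50.3, 47.73 and 65.55 times in the KO libraries, with a log2 change of -0.60 ± 0.223 (SE, edgeR adjusted p = 0.0433). Its adjusted p was the highest among the called genes of the set. Of 17 alternative fits, 7 did not call it, among them DESeq2 (adjusted p = 0.0604) and the fit without WT replicate 2 (log2 fold change -0.52, adjusted p = 0.122, edgeR).

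Tlr6 (gene ID 21899, chr5:64952030-64971140), the neighbour and close paralog of Tlr1, was at the limit of detection. It was counted 1.09, 6.23 and 3.52 times in the WT libraries, against 7.7, 3.37 and 5.57 times in the KO libraries, and the groups overlapped. The gene did not have enough counts for the test, and without a filter on low counts its adjusted p was 0.425 (edgeR), with a log2 change of 0.70 (SE 0.691). The summed counts were 11 in WT and 17 in KO, a scaled ratio of 1.67 with an exact 95% counting interval from 0.737 to 3.94. Counts of Tlr1 and Tlr6 were fractional in all 6 libraries, as RSEM gives for reads shared among similar sequences, and the split between these paralogs is uncertain.

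Tlr4 (gene ID 21898, chr4:66827551-66846581), the receptor of lipopolysaccharide, was the one tested receptor of the set that did not pass. It was counted 707, 952 and 905 times in the WT libraries, against 684, 793 and 772 times in the KO libraries, and the groups overlapped. The log2 fold change was -0.08 ± 0.133 (SE, edgeR adjusted p = 0.613). Over the 17 alternative fits it lay between -0.20 and 0.01 and was never called, with adjusted p between 0.157 and 0.971. The difference between Tlr4 and the other receptors was not itself tested.

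The adaptors moved in opposite directions. Myd88 (gene ID 17874, chr9:119335988-119340040), which serves all receptors of the set other than Tlr3, was counted 858, 887 and 916 times in the WT libraries, against 1125, 1371 and 1356 times in the KO libraries. All KO libraries were above all WT libraries. Its level rose from 41.3 ± 2.03 CPM to 64.4 ± 6.49 CPM (mean ± SD over 3 libraries each), a 1.56-fold increase with a log2 change of 0.64 ± 0.102 (SE, edgeR adjusted p = 0.000747). The log2 change was 0.32 after a correction for gene length (edgeR adjusted p = 0.0184). That correction shifted the median of all genes by -0.23 in place of 0.01, and calls over all genes were then 34.3% higher, against 51.3% without it. In GENCODE M21, Slc22a14, not analysed here, shares 5478 bases with Myd88 on the same strand, and Acaa1a overlaps 1736 bases on the other strand. The counts of Acaa1a moved the other way, at 1319, 1355 and 1294 in WT and 1020, 1058 and 1099 in KO.

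Ticam1 (gene ID 106759, chr17:56269462-56276767), the adaptor of Tlr3, was counted 412, 401 and 403 times in the WT libraries, against 231, 200 and 284 times in the KO libraries. It was lower in every KO library, with a log2 change of -0.66 ± 0.138 (SE, edgeR adjusted p = 0.0034), and 63.4% of the WT level was left. The ratio of Myd88 to Ticam1 in FPKM, the level per gene length, was 3.11, 3.30 and 3.40 in the WT libraries and 7.28, 10.2 and 7.14 in the KO libraries. The ratio was thus 2.51-fold higher in the KO mean, and the groups were apart.

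Both kinases were lower in KO by smaller amounts. Irak1 (gene ID 16179, chrX:74013914-74023921), which is recruited by MyD88 and passes the signal to TRAF6, was counted 1969, 2065 and 1800 times in the WT libraries, against 1474, 1302 and 1325 times in the KO libraries. The groups did not overlap, and the log2 fold change was -0.40 ± 0.093 (SE, edgeR adjusted p = 0.00567). Irak4 (gene ID 266632, chr15:94543613-94568317), the kinase at the head of this complex, was counted 800.55, 767.46 and 816.09 times in the WT libraries, against 672.03, 537.12 and 540.11 times in the KO libraries, with a log2 change of -0.34 ± 0.116 (SE, edgeR adjusted p = 0.0327). The call for Irak4 was lost in 5 of the 17 alternative fits, each of which left out a library, and the adjusted p without WT replicate 2 was 0.0582 (edgeR). Twf1 overlaps 3865 bases of Irak4 on the other strand, and its counts rose from between 1993 and 2013 in WT to between 3466 and 4168 in KO. The ratio of Irak1 to Irak4 in FPKM was 1.61 ± 0.151 in WT and 1.54 ± 0.120 in KO (mean ± SD over 3 libraries each), a difference smaller than the spread between libraries.

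**Figure D2:**
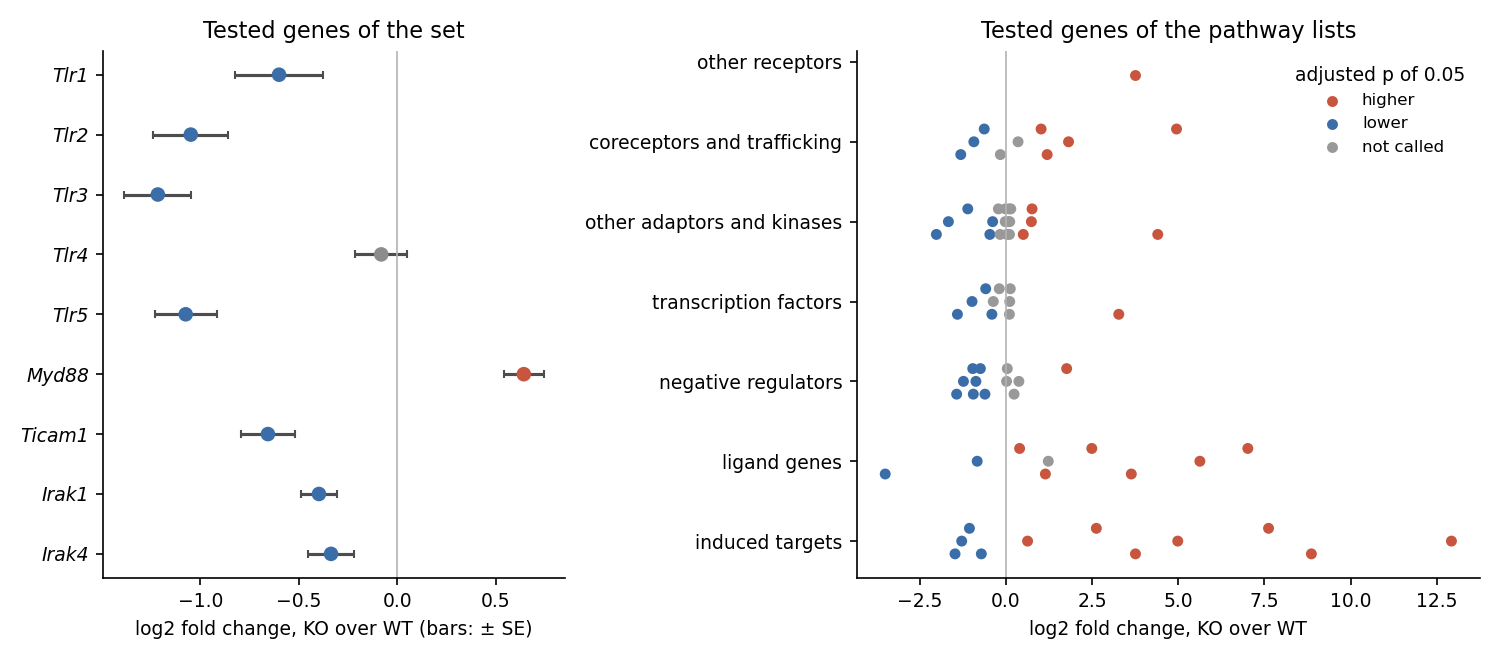
Log2 fold changes of KO over WT from edgeR, on the left for the 9 tested genes of the set with bars for ± SE, and on the right for the tested genes of 7 pathway lists with 1 point per gene. Colours mark genes higher, lower or not called at an adjusted p of 0.05; Myd88 is the single gene of the set to the right of 0, and Tlr4 lies at -0.08.

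Levels between genes were compared per gene length, as FPKM. In WT the order was Irak1 (24.1 ± 1.70), Myd88 (22.4 ± 0.650), Tlr5 (15.4 ± 3.09), Irak4 (15.0 ± 0.601), Tlr3 (9.31 ± 0.196), Ticam1 (6.86 ± 0.121), Tlr4 (5.14 ± 0.769), Tlr2 (4.55 ± 0.581), Tlr1 (1.49 ± 0.278) and Tlr6 (0.0467 ± 0.0351 FPKM, mean ± SD, n = 3). The ranges of Irak1 and Myd88, of Tlr5 and Irak4, and of Tlr4 and Tlr2 overlapped, while the other neighbours were apart. In KO, Myd88 led with 32.7 ± 3.78 FPKM, ahead of Irak1 (17.1 ± 1.14), Irak4 (11.2 ± 1.69) and Tlr5 (6.82 ± 0.410 FPKM, mean ± SD, n = 3). Tlr4 came next with 4.54 ± 0.404 FPKM, followed by Ticam1 (4.05 ± 0.657) and Tlr3 (3.78 ± 0.987), whose ranges overlapped with their neighbours in this stretch of the order. Tlr2 (2.06 ± 0.463), Tlr1 (0.947 ± 0.178) and Tlr6 (0.0967 ± 0.0451 FPKM, mean ± SD, n = 3) closed the order and were apart from each other. Tlr3 thus stood above Tlr4 in each WT library, whereas their ranges overlapped in KO.

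Summed over the 6 receptors of the set, the level was 32.4, 35.0 and 40.3 FPKM in the WT libraries and 16.5, 17.8 and 20.4 FPKM in the KO libraries. The KO mean was 0.508 of the WT mean. Tlr5 made up 42.6% ± 3.69 of the sum in WT and 37.6% ± 3.33 in KO, and these shares overlapped. The share of Tlr4 went from 14.3% ± 1.77 to 25.0% ± 2.45 (mean ± SD over 3 libraries each), and its libraries were apart. The share of Tlr3 was 26.1% ± 3.14 in WT and 20.5% ± 3.08 in KO, with overlap. Shares sum to a fixed total, so the larger share of Tlr4 goes with the lower levels of the others and its own level in FPKM overlapped between genotypes.

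**Figure D3:**
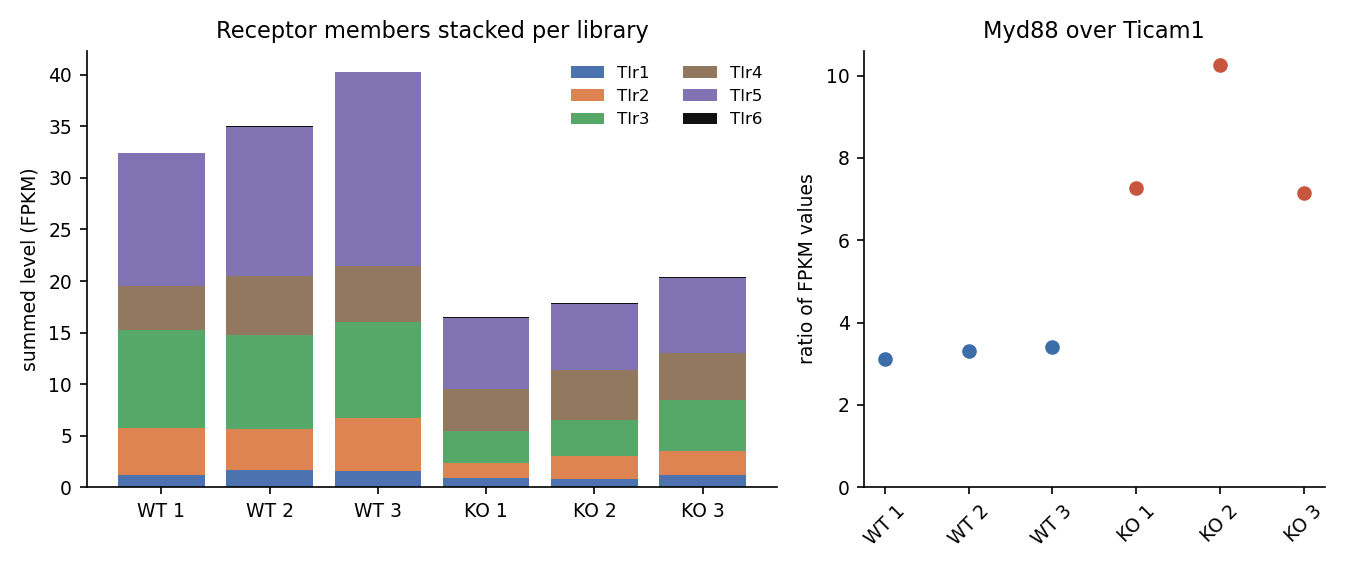
On the left, levels of the 6 receptor genes in FPKM stacked per library; on the right, the ratio of the FPKM values of Myd88 and Ticam1 per library. The stacks reach 32.4 to 40.3 FPKM in WT and 16.5 to 20.4 FPKM in KO, and the ratio lies between 3.11 and 3.40 in WT and between 7.14 and 10.2 in KO.

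The other genes of the pathway were followed through 7 lists, whose counts stand beside the 31.8% higher, 30.2% lower and 62.0% called in either direction over all genes tested. Of 9 tested co-receptor and trafficking genes, 4 were higher and 3 lower in KO, a count near those shares. Unc93b1, the chaperone that carries endosomal receptors such as TLR3 from the endoplasmic reticulum, fell by 1.30 ± 0.173 on the log2 scale (SE, edgeR adjusted p = 0.000287). Its counts were 1235, 877 and 1084 in WT and 320, 393 and 487 in KO. All KO libraries were below all WT libraries in CPM, as for 33.9% of all genes tested. Cnpy3, a folding factor of surface receptors, also fell, with a log2 change of -0.93 ± 0.134 (SE, edgeR adjusted p = 0.000455). Ly96 encodes MD-2, the partner through which TLR4 binds lipopolysaccharide, and it rose from 92, 94 and 85 counts to 147, 181 and 184, a log2 change of 1.03 ± 0.153 (SE, edgeR adjusted p = 0.000529). Cd14, which hands lipopolysaccharide to MD-2 and TLR4, rose as well, from 60, 51 and 58 counts to 84, 142 and 135, a 2.30-fold increase (edgeR adjusted p = 0.00223). These partners of TLR4 thus rose while Tlr4 itself did not pass.

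Of 19 further tested adaptors, kinases and ubiquitin ligases, 4 were higher, 5 lower and 10 did not pass, so that 9 of 19 were called beside 62.0% of all genes. Irak2, the kinase that sustains MyD88 signalling, was counted 3265, 2726 and 3158 times in the WT libraries, against 1014, 796 and 866 times in the KO libraries. Its log2 change of -1.66 ± 0.121 (SE, edgeR adjusted p = 1.21e-05) compares with -0.40 for Irak1 and -0.34 for Irak4. Peli2 and Peli3, which encode Pellino ligases that ubiquitinate IRAK proteins, fell by 2.01 and 1.10 on the log2 scale, whereas their relative Peli1 rose by 0.74. Tirap, the bridging adaptor between TLR2 or TLR4 and MyD88, had a log2 change of -0.38 ± 0.088 (SE, edgeR adjusted p = 0.00538). Traf6, the ubiquitin ligase behind IRAK1, rose by 0.76 ± 0.114 on the log2 scale (SE, edgeR adjusted p = 0.000531). Tbk1, Ikbke and Traf3, which act behind TRIF, were among the genes that did not pass, with log2 fold changes of -0.01, 0.03 and 0.10. Pik3ap1, a signalling adaptor of leukocytes, had at most 2 counts in a WT library and 24 to 33 in the KO libraries.

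Of 12 tested negative regulators, 7 were lower, 1 was higher and 4 did not pass, beside 30.2% lower and 31.8% higher over all genes. Sigirr, an inhibitory member of the receptor superfamily, fell from 170, 155 and 179 counts to 54, 62 and 58, a log2 change of -1.42 ± 0.159 (SE, edgeR adjusted p = 0.000111). The exception was Irak3, which encodes IRAK-M, an inhibitory kinase relative known from macrophages. It rose from 46, 44 and 34 counts to 104, 124 and 164, with a log2 change of 1.77 ± 0.229 (SE, edgeR adjusted p = 0.000253). Tollip, a further inhibitor of IRAK1, did not pass (log2 fold change 0.04, adjusted p = 0.771, edgeR).

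Among 10 transcription factors behind the receptors, 1 was higher, 4 were lower and 5 did not pass. Irf3 and Irf7, the factors through which TLR3 and TRIF induce interferon, fell by 0.58 and 1.40 on the log2 scale (adjusted p = 0.000667 and 0.000119, edgeR). Genes of proteins reported to act as endogenous receptor ligands were 6 higher, 2 lower and 1 not called of 9 tested. Tnc, the gene of the matrix protein tenascin-C, rose by 7.02 on the log2 scale and Fn1, the gene of fibronectin, fell by 3.50. Bgn, which encodes the proteoglycan biglycan, and Hspd1, which encodes a mitochondrial chaperonin, rose by 2.50 and 1.15. Of 11 tested genes that receptor signalling induces, 7 were higher and 4 lower. The higher ones included Defb4, Ptgs2, Il1b and Cxcl5, the genes of a defensin, of cyclooxygenase 2, of interleukin 1β and of a neutrophil chemokine. Cxcl5 had no count in WT and 33.27, 71.99 and 63 in the KO libraries, at least 60.5-fold higher against 3 counts over the WT group. The 4 lower ones were Tnf, Ifit1, Ifit3 and Isg15. The median log2 fold change was -0.67 for the negative regulators, -0.28 for the transcription factors, 0.03 for the further adaptors and kinases, 1.23 for the ligand genes and 2.63 for the induced genes, beside 0.01 over all genes tested. The last median was also 2.63 with Cxcl5 at its bound. It covers 11 of the 19 induced genes found, as the others had too few counts for the test. Defb4, Ptgs2, Cxcl5 and the ligand gene Bgn had at most 7 counts in a WT library and were tested through their KO counts. The same held for Il1b (8, 3 and 5 counts in WT), Cxcl2 (1, 10 and 13) and Icam1 (9, 16 and 24). It also held for the ligand genes Tnc (5, 7 and 13 counts in WT) and S100a8 (0, 160 and 1). All of these were called higher. The medians of the ligand and induced genes, and their counts of higher genes, thus depend on the filter for low counts.

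The receptors outside the set were near 0 in WT and had low counts in KO. Tlr13, a mouse receptor of bacterial ribosomal RNA, was counted 2, 0 and 2 times in the WT libraries, against 20, 16 and 18 times in the KO libraries. It was the only one of them with enough counts for a test, through its KO counts alone, and was called higher in KO (edgeR). As its WT counts were near 0, its change is given as a scaled ratio of 14.6, with an exact 95% interval from 5.37 to 55.4. Tlr9, the receptor of unmethylated CpG DNA, was counted 2, 0 and 0 times in the WT libraries, against 12, 7 and 14 times in the KO libraries, a scaled ratio of 17.8 with an exact 95% interval from 4.55 to 153. The single-stranded RNA receptors were lower still. Tlr7 was counted 1, 0 and 0 times in the WT libraries, against 7, 4 and 3 times in the KO libraries, and Tlr8 had 0 counts in each WT library and 1, 4 and 10 in KO, a level at least 5.39-fold higher when set against 3 counts over the WT group. Tlr12, a receptor of the parasite protein profilin, was counted 3, 0 and 2 times in the WT libraries, against 10, 4 and 9 times in the KO libraries. All KO libraries were above all WT libraries for these 5 genes, whereas Tlr1, Tlr2, Tlr3 and Tlr5 had KO libraries below WT libraries. Over all genes tested, 34.7% had KO above WT, but of these 5 genes only Tlr13 was tested. That share need not hold for the others, which were near 0 in WT. Intervals and bounds of this kind cover counting error only.

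Most leukocyte markers were higher in KO, as these 5 receptors were, the exceptions among macrophage markers being Itgam, which fell by 0.60 on the log2 scale (edgeR adjusted p = 0.0113), and Cd68 and Aif1, which did not pass (edgeR adjusted p = 0.627 and 0.0905). Of 10 macrophage and monocyte markers, 8 had all KO libraries above all WT libraries in CPM, beside 34.7% of all genes tested. Mrc1 and Fcgr1, included in the 8, had too few counts for the test. The defining genes Adgre1, which encodes F4/80, and Csf1r had 0 to 1 and 2 to 19.4 counts in WT and 31 to 42 and 148 to 154 in KO. The summed level of this list overlapped between groups, from 81.1 to 91.8 FPKM in WT and from 64.8 to 88.5 in KO, and most of it came from Itgam and Cd68, which had at least 4999 and 593 counts in each WT library. Dendritic and Langerhans cell markers summed to between 6.13 and 13.9 FPKM in WT and between 69.5 and 125 in KO, with 6 of 7 higher in KO without overlap, and their defining gene Cd207 had 0 to 2 counts in WT and 13 to 26 in KO. Lymphocyte markers summed to between 0.39 and 0.50 FPKM in WT and between 3.20 and 5.31 in KO, where Cd79a and Ms4a1 were at 0 in WT and had at most 2 and 1 counts in a KO library, and Nkg7 was at 0 in WT and had 7 to 13. Ptprc, the pan-leukocyte gene of CD45, had 5 to 13 counts in WT and 87 to 123 in KO.

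The remaining lists also differed between the groups. Neutrophil markers summed to between 7.68 and 148 FPKM in WT, the highest value being that of WT replicate 2, and to between 400 and 1364 FPKM in KO, nearly all of it from S100a8 and S100a9. The other neutrophil markers were mixed. Csf3r and Cxcr2 rose by 1.13 and 0.82 on the log2 scale (edgeR adjusted p = 0.00757 and 0.00512). Ly6g fell by 1.80 on the log2 scale (edgeR adjusted p = 0.0291), although its groups overlapped in CPM. Counts of Csf3r, Cxcr2 and Ly6g were fractional in all 6 libraries. Retnlg was at 0 in WT and had 0, 9 and 4 counts in KO, and Elane had 1 count in 1 KO library and 0 in the others. Stromal markers summed to between 2.44 and 2.92 FPKM in WT and between 8.39 and 15.2 in KO, although Pdgfra, which made up most of the WT sum, fell by 3.43 on the log2 scale (edgeR adjusted p = 4.70e-06). Endothelial markers summed to between 0.42 and 0.64 FPKM in WT and between 1.07 and 1.19 in KO. Corneal epithelial markers summed to between 51842 and 53859 FPKM in WT and between 11983 and 13731 in KO, with Krt15 not called (edgeR adjusted p = 0.483) and Gjb6 6.53-fold higher in KO (edgeR adjusted p = 4.58e-05). The part of these cell types in the values of the receptors, of Myd88, Cd14 and Ly96, and of the corneal cells in the lower values of Tlr3 and Tlr5, was not tested.

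**Figure D4:**
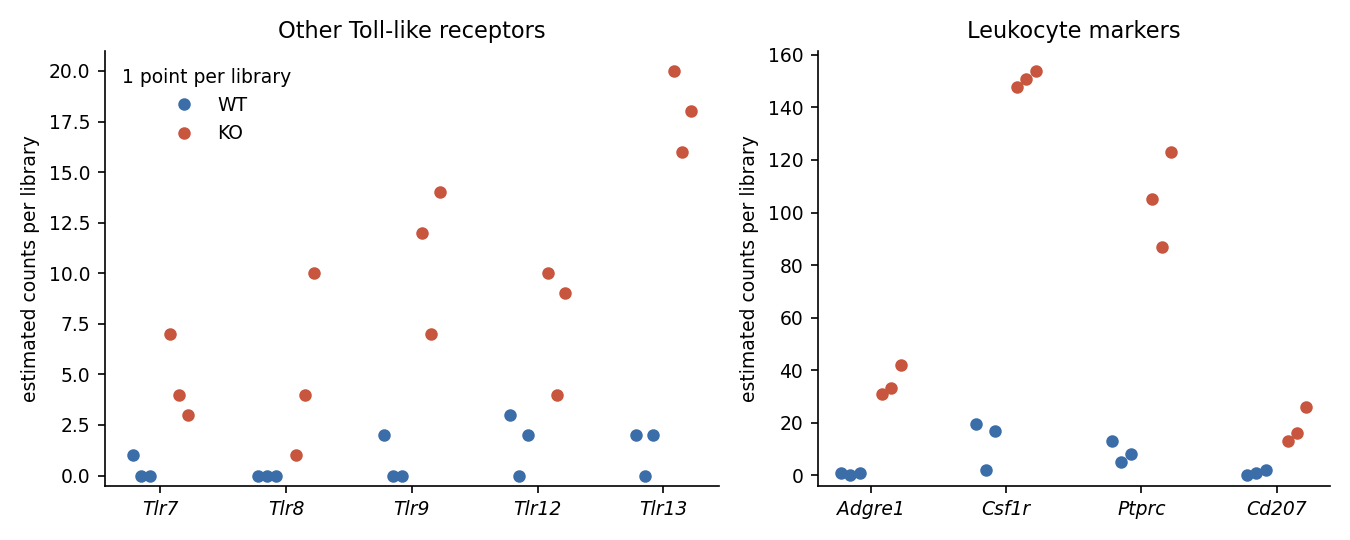
Estimated counts per library, on linear axes, of 5 Toll-like receptor genes outside the set and of 4 leukocyte marker genes, with 1 point per library. The 4 marker genes drawn are all higher in KO. Not drawn are Itgam, which was lower in KO, and Cd68 and Aif1, which did not pass. WT libraries have at most 3 counts of each receptor gene; the KO libraries reach 20 counts for Tlr13 and 154 counts for Csf1r.

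Genes with the profile closest to Myd88 and to Tlr5, the most abundant receptor, were found from the root mean square difference of log2(CPM + 1) over the 6 libraries, each gene centred on its mean. For Myd88 these were Wdr61, Ddx3x and Mrpl45, with differences of 0.028, 0.030 and 0.030 log2 units, and 360 genes lay within 0.1. For Tlr5 the nearest were Gm6880, Cpm and Cavin3, at 0.073, 0.080 and 0.082, and 8 genes lay within 0.1. Gm6880 stood at 1.37 CPM in WT, where the added 1 compresses differences. As the libraries fall into the genotypes, these distances include the difference between WT and KO.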

How the data were processed

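The authors sequenced rRNA-depleted RNA of 6 corneal epithelium libraries, aligned reads with Bowtie2 2.2.5 and estimated gene levels with RSEM 1.2.12. The submitters' notes name mm9, whereas the deposited gene coordinates carry GRCm38 chromosome accessions. The deposited table holds estimated counts, which RSEM splits among similar genes, FPKM (counts per effective length and library total) and TPM, and all 18 per-library columns matched a sample. The authors' own fold changes and p-values in the table were not used.

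Groups and replicate numbers came from the titles. Counts were rounded and tested over 13305 genes with edgeR 4.0.16 (TMM factors, filterByExpr, quasi-likelihood F-test, genotype as the only term) under R 4.3.3, with Benjamini-Hochberg adjustment over all of them. SE is the absolute log2 fold change over the square root of F. The genes of the set, the 7 pathway lists and the 7 marker lists were chosen with earlier results of these data known. Named from each pathway list were genes at the study threshold, up to 4 by size of change, all receptors with at least 4 counts in a library, and defining markers. Other list genes were named after their values were seen. Tlr11, Ifnb1, Mpo, Trac, Cdh5 and Emcn were not analysed here. A lymphocyte marker is not reported here by name. Effective length was that implied by counts and FPKM.

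The alternatives were DESeq2 1.42.0, limma 3.58.1 on log2(FPKM + 1) and log2(FPKM + 0.1), other scalings and filters, robust dispersion, a loess length offset, the replicate block and leaving out each library. On simulated counts of 13305 genes, edgeR recovered 80% of the genes given a 2-fold change and 97% of those given a 4-fold one. Only 100 genes were given each change, and all genes shared a common dispersion. In the data 62.0% of genes were called, so these rates need not hold there.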

Additional observations from a re-analysis of the deposited data

How the results depend on the processing

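Tlr2, Tlr3, Tlr5, Myd88, Ticam1 and Irak1 kept their direction and their call in all 17 alternative fits. Tlr1 was not called with DESeq2 (log2 fold change -0.59), with a mean count of at least 50 (-0.57), or with the replicate number as a block (-0.60). When each library was left out in turn, the log2 fold change of Tlr1 lay between -0.75 and -0.52 and that of Irak4 between -0.46 and -0.28. Both calls were lost without WT replicate 2, WT replicate 3 or KO replicate 2, that of Tlr1 also without KO replicate 1, and that of Irak4 also without WT replicate 1 or KO replicate 3. The log2 fold change of Tlr4 lay between -0.20 and 0.01 and changed sign without WT replicate 2 (0.00701, adjusted p = 0.971, edgeR). With a library left out, 6 to 7 genes of the set were called. In the main fit 2 passed the study threshold, where 2639 of all genes passed in place of 8253. Which genes of the set passed it depended on the fit. Tlr2 also passed with DESeq2 (log2 fold change -1.04, adjusted p = 1.06e-05). It passed too with total counts only and with length correction (adjusted p = 0.000884 and 0.000787, edgeR). With a library left out, Tlr3 passed only without WT replicate 2 or KO replicate 3, and otherwise its adjusted p reached 0.00196 (edgeR). Tlr5 then passed only without WT replicate 1. Its log2 fold change was -0.88 without WT replicate 3, and its adjusted p was 0.00252 without KO replicate 2 (edgeR).

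The labels link WT and KO libraries by replicate number only. Deviations of same-numbered libraries correlated between -0.01 and 0.06, and 1 of 6 libraries correlated best with its own number. With so few libraries, these values cannot show whether same-numbered libraries shared anything else. With the replicate block 8083 of all genes were called, and it left 7 genes of the set called, Tlr1 being lost. Of the receptors outside the set, 1 was called, 5 without a filter on low counts, 0 with a mean count of at least 50, where none of them was kept, and between 1 and 2 with a library left out. The order of levels was the same in TPM for all 10 genes. Causes of these shifts were not tested. At this depth, receptors with fewer than 10 counts per library could not be compared precisely.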
